A study of Homo sapiens with 6 samples.

Results

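The genes described here form a small regulatory circuit of the cyclic AMP (cAMP) response: the transcription factors CREM and ATF1, the CREB-regulated transcription co-activators CRTC1, CRTC2 and CRTC3, the salt-inducible kinases SIK1, SIK2 and SIK3, and the cAMP phosphodiesterases PDE4B and PDE4D. They were chosen by name with earlier results of these data known, through the Ensembl identifier of each symbol, and are 10 of the 61496 features in the deposited tables. All 10 passed the filter on low counts. Total RNA was depleted of ribosomal RNA and sequenced with strand-specific adapters in 6 libraries of U251, an established human glioma cell line. Control cells, which were untreated, gave 3 libraries, and U251 cells after 2 h in sevoflurane (Sev), a volatile anesthetic gas, gave the other 3. No library carried a gene deletion or siRNA according to its label. The sequencing compared cells exposed at 5.1% of the gas with control cells, while the labels give no concentration for a single library and the deposited protocol also names 1.7% and 3.4%. Nothing in the labels says that the replicates came from separate cultures, so the p-values measure the spread between these libraries, which may be technical.

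In cells, hormone and prostaglandin receptors raise cAMP through adenylyl cyclases, and cAMP frees the catalytic subunits of protein kinase A (PKA). PKA phosphorylates CREB1, ATF1 and CREM, which bind the cAMP response element (CRE), and it also inhibits the SIKs. Active SIKs keep the CRTCs phosphorylated and in the cytoplasm, and dephosphorylated CRTCs enter the nucleus and raise transcription from CRE promoters. SIK1, PDE4B, PDE4D and the short CREM repressor ICER are known as CRE targets that limit the same signal.

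After 2 h of Sev, the SIK family showed opposite shifts. SIK1 rose 3.10-fold, SIK2 fell 1.59-fold, and SIK3 differed by less than the spread between replicates. Among the co-activators, CRTC2 and CRTC3 rose 1.59-fold and 1.70-fold, whereas CRTC1 fell 1.40-fold. Of the phosphodiesterases, PDE4B fell 1.63-fold, and PDE4D did not pass the test. ATF1 rose 1.28-fold, and CREM did not pass the test. In all, 4 of the 10 genes were higher and 3 were lower at an adjusted p-value under 0.05 by edgeR's quasi-likelihood test. Called in this sense were 43.7% of the 27514 tested features, with 22.1% higher and 21.5% lower, and 45.9% of the 15189 protein-coding genes. The median log2 fold change was 0.16 over the 10 genes and -0.0056 over all tested features. SIK1 alone passed the study's own threshold of a log2 fold change past 1 with an unadjusted p-value under 0.05, which 23.5% of features passed, 11.4% upward, and 16.7% of protein-coding genes. The control and Sev libraries did not overlap for 7 of the 10 genes, 4 with Sev above and 3 with Sev below. The same held for 56.5% of all features (28.3% above, 28.2% below) and 57.8% of protein-coding genes. These are bulk samples, so fewer cells with a transcript and less transcript per cell cannot be told apart.

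**Figure D1:**
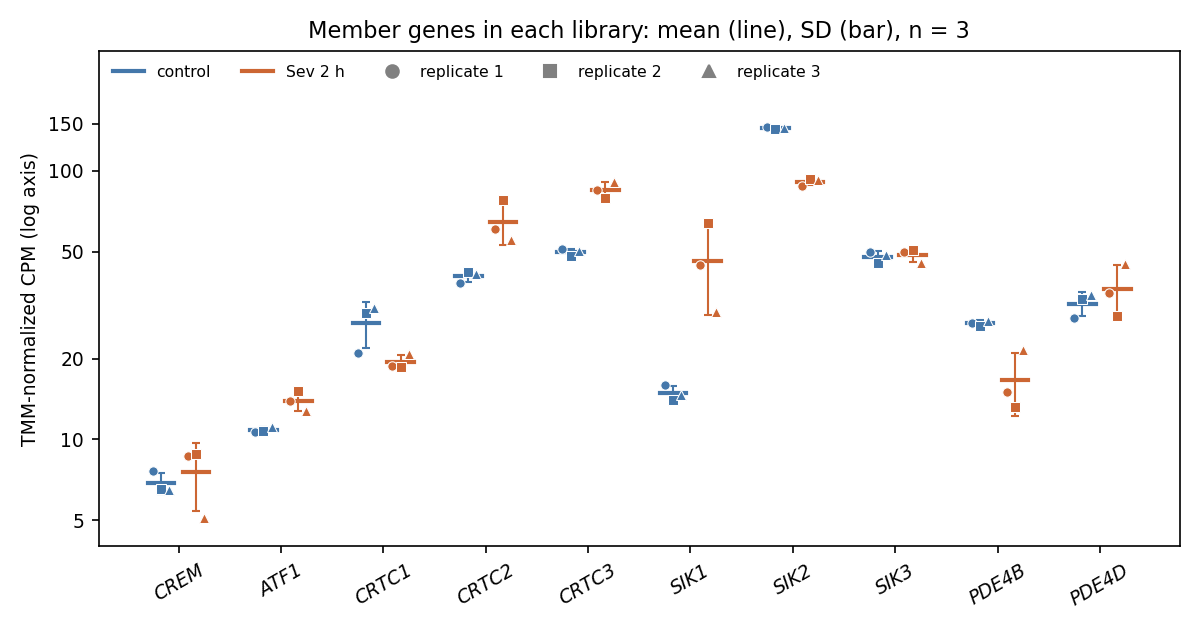
Counts per 1000000 TMM-scaled library counts (CPM, log axis) of the 10 genes in each of the 6 libraries, with circles, squares and triangles for replicates 1, 2 and 3, lines for the means and bars for the SD (n = 3). The SIK1 libraries lie between 14.0 and 16.0 CPM in control cells and between 29.8 and 63.7 CPM after Sev, while those of SIK2 lie between 143 and 146 CPM and between 87.8 and 92.9 CPM.

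The libraries held 38624292 to 46318311 counts. Control and Sev libraries separated along the first principal component, which carried 69% of the variance. Along the second, Sev replicates 2 and 3 lay at opposite ends. Of 8 glioma or astrocyte lineage markers, 7 were above 1 FPKM (fragments per kilobase, scaled to the library's total) in every library, and AQP4 was near 0. Within this lineage list CD44 rose (log2 fold change 0.97, adjusted p = 0.000174) and SOX2 (-0.72, adjusted p = 0.000367) and S100B (-1.10, adjusted p = 0.00215) fell. Of 11 markers of leukocytes, microglia, endothelium, epithelium, neurons and oligodendrocytes, 9 were under 1 FPKM in every library and AIF1 was at 0, while the neuronal SYT1 (0.55), the oligodendrocyte gene MBP (1.01) and the endothelial PECAM1 (0.92) were higher after Sev at adjusted p-values of 0.00521, 0.00588 and 0.0409. The summed level of these 11 was 3.14 to 4.40 FPKM in control cells and 4.62 to 5.03 FPKM after Sev, and the part of these marker differences in the results was not tested.

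Promoter sequences of the members were taken from RefSeq (GRCh38.p14) to show where CRE motifs lie before the start sites of the kinases and of CREM. A window of 250 bases before each annotated start was searched for the full CRE, TGACGTCA, and for its half-site, TGACG, read on either strand (CGTCA on the reverse), so that a full CRE counts as overlapping half-sites. For 9 of the 10 genes there were 29 windows, and CRTC2 had no entry. The windows printed are in the gene's own direction, 5′ to 3′, in lower case with the motifs in capitals, and they stop shortly after the first annotated exon begins.
SIK1 (chr21:43427170-43427381, minus strand): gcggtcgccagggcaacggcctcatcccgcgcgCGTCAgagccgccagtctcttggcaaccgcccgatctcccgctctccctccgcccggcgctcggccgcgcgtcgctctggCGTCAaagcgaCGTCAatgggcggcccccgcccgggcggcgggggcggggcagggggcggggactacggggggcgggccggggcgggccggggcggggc
SIK2 (chr11:111602199-111602410, plus strand): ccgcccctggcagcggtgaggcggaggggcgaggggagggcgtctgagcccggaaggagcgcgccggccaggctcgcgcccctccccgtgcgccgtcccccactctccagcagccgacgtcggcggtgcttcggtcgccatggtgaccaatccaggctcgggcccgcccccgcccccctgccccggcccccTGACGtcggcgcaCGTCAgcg
SIK3 (chr11:117098429-117098678, minus strand): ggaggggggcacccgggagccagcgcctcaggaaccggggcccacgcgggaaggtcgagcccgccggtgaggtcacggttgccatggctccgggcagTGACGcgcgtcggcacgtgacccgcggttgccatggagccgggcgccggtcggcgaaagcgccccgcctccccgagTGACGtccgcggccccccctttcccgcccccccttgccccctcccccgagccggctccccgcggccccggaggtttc
CREM, a start site inside the gene (chr10:35195652-35195869, plus strand): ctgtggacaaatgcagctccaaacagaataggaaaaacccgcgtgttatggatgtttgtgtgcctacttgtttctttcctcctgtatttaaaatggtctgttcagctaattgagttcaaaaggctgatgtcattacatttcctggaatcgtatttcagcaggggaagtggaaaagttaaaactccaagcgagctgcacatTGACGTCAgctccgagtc
The SIK1 window held 3 half-sites, which begin 217, 137 and 126 bases before the start. SIK2 had 2 half-sites at 59 and 46 bases, and SIK3 had 2 at 153 and 77 bases. At least 2 half-sites occurred in 4.76% of the 35116 RefSeq windows of this length. The printed CREM window was the only one among the 29 with a full CRE, 50 bases before the start, and 1.65% of all windows had one. CREM had 7 windows, several of them inside the gene, and which start gives ICER is not stated in the sources used here. A half-site was found in 7 of the 29 windows, from CREM, CRTC3, SIK1, SIK2, SIK3 and PDE4D, and in 21.2% of all windows. ATF1, CRTC1 and PDE4B had none in their windows. These matches are of letters only. Their relation to the expression differences was not tested.

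SIK1 (ENSG00000142178, chr21:43414483-43427189, minus strand, GRCh38) encodes the kinase of the family whose transcript is induced by cAMP. Its level, in counts per 1000000 TMM-scaled library counts (CPM), was 15.98, 14.03 and 14.61 CPM in control replicates 1, 2 and 3, and 44.57, 63.74 and 29.84 CPM in Sev replicates 1, 2 and 3. Every Sev library lay above every control library, and the Sev libraries differed among themselves by more than the control libraries did. The mean went from 14.9 ± 1.0 CPM to 46.0 ± 17.0 CPM (SD, n = 3). The log2 fold change was 1.63 with a standard error (SE) of 0.25 and a 95% interval of 1.06 to 2.20 (adjusted p = 0.0017, edgeR). Leaving out each library in turn gave 1.33 to 1.87. SIK1B (ENSG00000275993, chr21:6111134-6123739, plus strand) is annotated as a near-identical copy elsewhere on chromosome 21. The same reads may have been divided between both entries, so the values of SIK1 alone may be too low. Whether SIK1B is a separate gene in these cells was not tested. SIK1B had 26.22, 20.29 and 21.53 CPM in control cells and 68.60, 100.87 and 46.17 CPM after Sev, a log2 fold change of 1.66 (SE 0.26, adjusted p = 0.00198). The count of SIK1B was 1.45 to 1.64 times that of SIK1 in the control libraries and 1.54 to 1.58 times after Sev. The fitted folds were alike, 3.10 for SIK1 and 3.17 for SIK1B. Since both entries may divide the same reads, this does not show that separate genes rose. Their summed level was 6.41 ± 0.85 FPKM in control cells and 18.1 ± 6.24 FPKM after Sev.

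SIK2 (ENSG00000170145, chr11:111602391-111730853, plus strand) was the most abundant SIK transcript in control cells. It encodes a kinase that phosphorylates the CRTCs and class IIa histone deacetylases. Control libraries had 145.60, 142.58 and 144.86 CPM, and Sev libraries 87.82, 92.86 and 92.11 CPM. The groups were far apart and narrow, at 144 ± 1.57 CPM and 90.9 ± 2.72 CPM. This was a log2 fold change of -0.67 (SE 0.069, 95% interval -0.83 to -0.51, adjusted p = 0.00037). PPP2R1B, a phosphatase subunit gene on the opposite strand, overlaps SIK2 by 3946 bases and held 38.8% as many counts. Its log2 fold change was -0.047 (adjusted p = 0.713). Whether the counting used strand is not given in the sources used here.

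SIK3 (ENSG00000160584, chr11:116843402-117098437, minus strand), the largest of the family by gene span, had 49.88, 45.38 and 48.66 CPM in control cells and 49.83, 50.62 and 45.36 CPM after Sev. The groups overlapped nearly completely. Its log2 fold change was 0.019 (SE 0.087, adjusted p = 0.878), and the 95% interval of -0.18 to 0.22 does not reach the estimates of either SIK1 or SIK2. The estimate was below 0 when libraries were scaled by their totals alone (-0.13).

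Ratios within a library do not depend on how libraries are scaled. The SIK1 count was 0.110, 0.0984 and 0.101 of the SIK2 count in the control libraries, and 0.508, 0.686 and 0.324 of it in the Sev libraries. The ratio was thus 4.70-fold higher after Sev, with the groups apart. Against SIK3, the SIK1 count was 2.92-fold higher. The SIK2 to SIK3 ratio went from 2.92, 3.14 and 2.98 to 1.76, 1.83 and 2.03. Each of these differences had a two-sided exact permutation p of 0.1, the smallest that 3 against 3 libraries can give, and an adjusted p of 0.133 over the 8 ratios of this kind computed here. On the length-scaled FPKM values, SIK2 made up 55.5 ± 1.87% of the summed SIK1, SIK1B, SIK2 and SIK3 level in control cells and 25.9 ± 6.36% after Sev. SIK1 and SIK1B together became the larger part, SIK1 going from 10.6 ± 0.27% to 23.1 ± 3.06% and SIK1B from 17.5 ± 1.64% to 38.7 ± 5.55%. Without SIK1B, the shares of SIK1 were 12.9% and 38.2%, and those of SIK2 were 67.2% and 41.9%. The sum of SIK1, SIK2 and SIK3 was 18.8 ± 0.85 FPKM in control cells and 17.4 ± 2.14 FPKM after Sev. With SIK1B added, the mean went the other way, from 22.7 ± 1.47 to 28.7 ± 6.11 FPKM. The groups overlapped in both sums. FPKM is scaled to library totals and not by TMM, and fits on FPKM moved log2 fold changes by a median of -0.12 to -0.14. The direction of the sum without SIK1B, with a Sev to control ratio of 0.925, may therefore depend on the scaling.

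**Figure D2:**
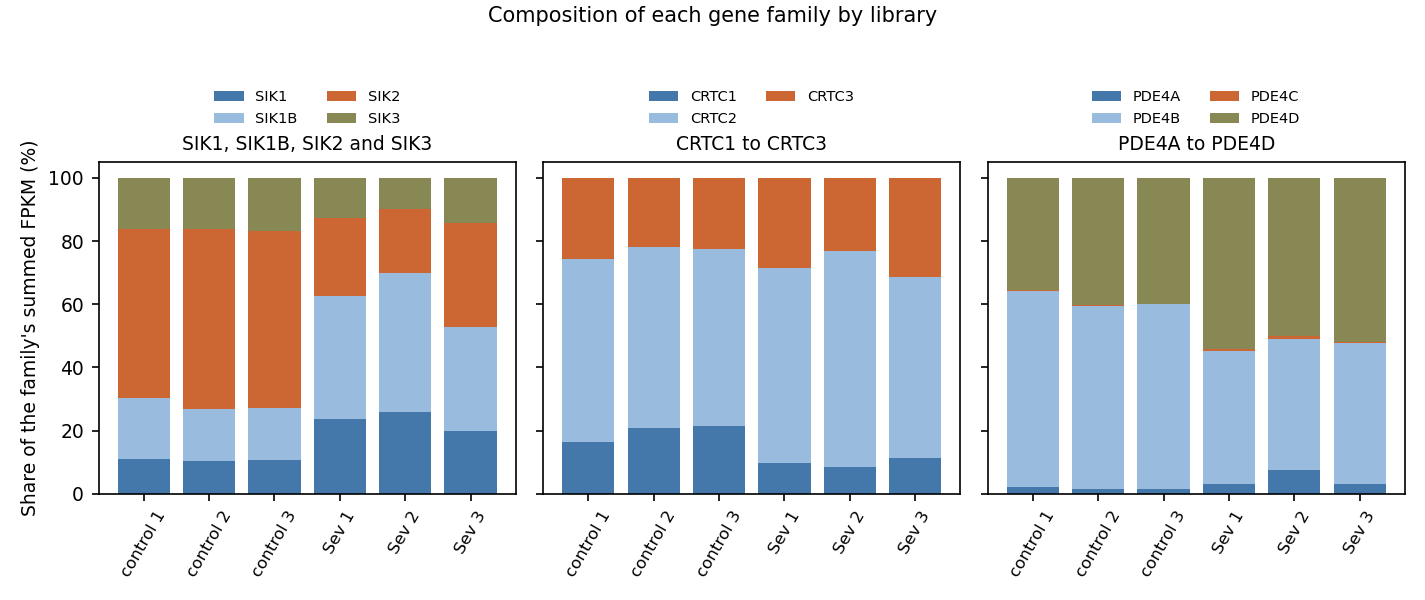
Share of each gene in its family's summed FPKM (percent, vertical axis) for each of the 6 libraries, as stacked bars that each add up to 100%. SIK2 is the largest block of the SIK family in the 3 control libraries, at 53.4% to 57.0%, and SIK1B is the largest in the 3 Sev libraries, at 33.0% to 44.1%.

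CRTC1, CRTC2 and CRTC3 encode the co-activators that the SIKs hold in the cytoplasm. CRTC3 (ENSG00000140577, chr15:90529925-90645345, plus strand) had 50.99, 48.33 and 50.32 CPM in control cells and 84.71, 79.50 and 90.79 CPM after Sev. All Sev libraries lay well above the control libraries, with a log2 fold change of 0.77 (SE 0.083, 95% interval 0.58 to 0.96, adjusted p = 0.000421). The 4 RNAs antisense to CRTC3 did not pass the test, with adjusted p-values of 0.381 to 0.864. CRTC2 (ENSG00000160741, chr1:153947669-153958625, minus strand), the main CRTC in liver and many other tissues, had 38.37, 41.95 and 41.41 CPM in control cells and 60.82, 77.85 and 55.13 CPM after Sev. The groups were again apart, with Sev replicate 2 the highest, as for SIK1. Its log2 fold change was 0.67 (SE 0.13, 95% interval 0.36 to 0.98, adjusted p = 0.0052).

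CRTC1 (ENSG00000105662, chr19:18683677-18782333, plus strand), the CRTC best known from neurons, went the other way. It had 21.06, 29.61 and 30.96 CPM in control cells and 18.72, 18.68 and 20.82 CPM after Sev. Control replicate 1 lay just above Sev replicate 3, so the groups were only narrowly apart. On the log2 scale the difference was -0.49 (SE 0.15, 95% interval -0.85 to -0.13, adjusted p = 0.0354). It did not pass the test when any library other than control replicate 1 was left out, with adjusted p-values up to 0.119, and without control replicate 1 it was -0.65. The CRTC1 to CRTC3 count ratio, 0.413, 0.613 and 0.615 in control cells, was 0.221, 0.235 and 0.229 after Sev, 2.36-fold lower. Relative to CRTC2, CRTC1 was 2.18-fold lower. Both ratios were apart between groups (exact permutation p = 0.1, adjusted p = 0.133). CRTC2 and CRTC3 did not differ in this way, since their ratio overlapped between groups (log2 difference -0.11, exact permutation p = 0.6). By FPKM, the share of CRTC1 in the family was 19.6 ± 2.78% in control cells and 9.81 ± 1.36% after Sev, while the family's sum went from 16.8 ± 0.75 to 22.0 ± 1.36 FPKM with no overlap.

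ATF1 and CREM encode relatives of CREB1 that bind the same element. ATF1 (ENSG00000123268, chr12:50763710-50821122, plus strand) had 10.66, 10.73 and 11.16 CPM in control cells and 13.94, 15.09 and 12.72 CPM after Sev. The Sev libraries were all higher, by a small margin. This made a log2 fold change of 0.36 (SE 0.12, 95% interval 0.088 to 0.63, adjusted p = 0.039). This call was lost in 11 of 15 alternative settings, among them scaling by library totals alone (0.21, adjusted p = 0.166) and leaving out any library other than Sev replicate 3 (0.30 to 0.37, adjusted p = 0.0901 to 0.0975).

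CREM (ENSG00000095794, chr10:35126791-35212958, plus strand) gives rise to activators and, from a start site inside the gene, to the ICER repressor. The counts are per gene and do not separate these products, and the start site of ICER was not matched to the promoter window printed above. CREM had 7.61, 6.54 and 6.49 CPM in control cells and 8.71, 8.84 and 5.10 CPM after Sev. Sev replicates 1 and 2 lay above all control libraries and Sev replicate 3 below them. Its log2 fold change was 0.13 (SE 0.22, 95% interval -0.38 to 0.65, adjusted p = 0.656), and it was -0.018 when libraries were scaled by their totals alone. On the FPKM scale, the level was 0.98 ± 0.11 in control cells and 0.97 ± 0.25 after Sev. The CREM to ATF1 ratio overlapped between groups (log2 difference -0.26, exact permutation p = 0.5). CREB1, the founding member of the family, went from 31.6 ± 3.96 CPM to 16.8 ± 0.52 CPM, a log2 fold change of -0.91 (SE 0.11, adjusted p = 0.000779). Of the summed FPKM of CREM, CREB1 and ATF1, CREB1 had 34.2 ± 2.53% in control cells and 18.3 ± 2.40% after Sev, and ATF1 had 50.6 ± 1.56% and 65.1 ± 1.54%.

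PDE4B and PDE4D encode enzymes that hydrolyze cAMP. PDE4B (ENSG00000184588, chr1:65792514-66374579, plus strand) had 27.21, 26.38 and 27.71 CPM in control cells and 15.05, 13.23 and 21.53 CPM after Sev. The Sev libraries all lay below the narrow control range, with Sev replicate 3 the nearest to it. The log2 fold change was -0.71 (SE 0.18, 95% interval -1.11 to -0.30, adjusted p = 0.0139), and without Sev replicate 1 it was -0.64 (adjusted p = 0.0547). An antisense RNA within PDE4B, AL590783.1, held 3.04% as many counts and had a log2 fold change of -1.33 (adjusted p = 0.00845).

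PDE4D (ENSG00000113448, chr5:58969038-60522120, minus strand) had 28.30, 33.27 and 34.46 CPM in control cells and 35.07, 28.80 and 45.11 CPM after Sev. The groups overlapped, and Sev replicate 3 was the highest. The log2 fold change was 0.18 (SE 0.17, 95% interval -0.20 to 0.57, adjusted p = 0.407), and without Sev replicate 3 it was -0.0015. PART1, a long noncoding RNA on the opposite strand of PDE4D with 4.07% as many counts, fell by 1.75 on the log2 scale (adjusted p = 0.00131). The PDE4B to PDE4D ratio was 0.962, 0.793 and 0.804 in control cells and 0.429, 0.459 and 0.477 after Sev. The groups of this ratio were apart and 1.87-fold lower after Sev (exact permutation p = 0.1, adjusted p = 0.133). Of the summed FPKM of PDE4A to PDE4D, PDE4B had 59.5 ± 2.36% in control cells and 42.8 ± 1.79% after Sev, and PDE4D had 38.5 ± 2.68% and 52.1 ± 1.98%, so that PDE4D became the larger part in each Sev library.

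**Figure D3:**
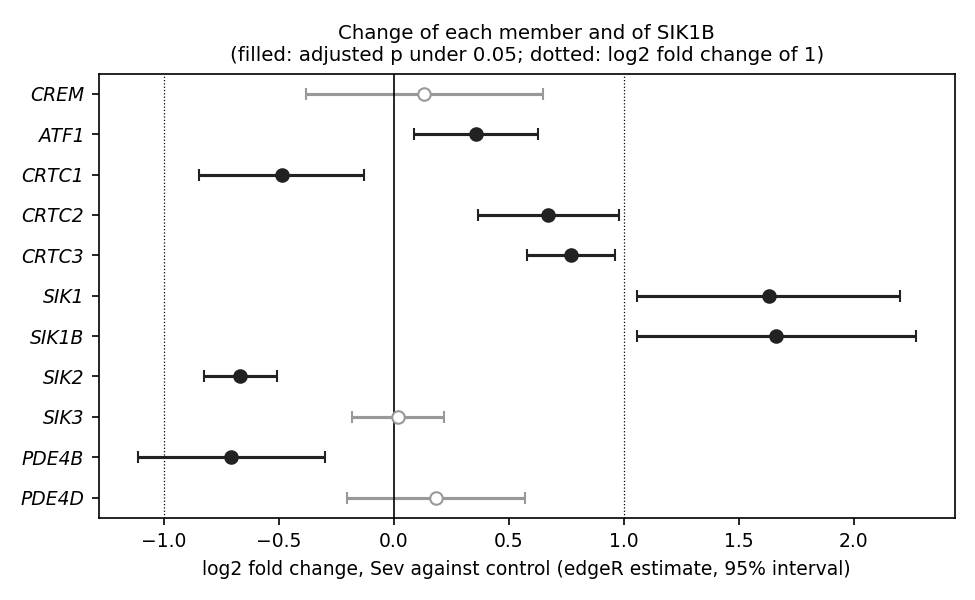
Log2 fold change of Sev against control (horizontal axis, edgeR estimate with its 95% interval) for the 10 genes and SIK1B, filled where the adjusted p-value was under 0.05, with dotted lines at a log2 fold change of 1 in either direction. The intervals of SIK1 and SIK1B lie wholly above 1, and those of CREM, SIK3 and PDE4D include 0.

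Ordered by mean FPKM, which accounts for transcript length, control cells had SIK2 (12.6), CRTC2 (9.59), CRTC3 (3.92), SIK3 (3.74), CRTC1 (3.31), ATF1 (3.25), PDE4B (2.57), SIK1 (2.42), PDE4D (1.67) and CREM (0.98). CRTC3 and SIK3, SIK3 and CRTC1, CRTC1 and ATF1, and PDE4B and SIK1 were neighbours whose libraries overlapped. After Sev the order was CRTC2 (13.8), SIK2 (7.18), SIK1 (6.75), CRTC3 (6.06), ATF1 (3.77), SIK3 (3.42), CRTC1 (2.14), PDE4D (1.72), PDE4B (1.42) and CREM (0.97). There, SIK2, SIK1 and CRTC3 overlapped as neighbours, as did CRTC1 and PDE4D, PDE4D and PDE4B, and PDE4B and CREM. Counted without SIK1B, SIK1 moved from the eighth place to the third, and CRTC2 took the first place from SIK2. SIK1 and SIK1B together, at 6.41 FPKM in control cells and 18.1 FPKM after Sev, would stand below CRTC2 in control cells and above it after Sev by their means.

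The Sev libraries were not equally far from the control mean. The SIK1 shift on the log2 scale was 1.59, 2.1 and 1.01 in Sev replicates 1, 2 and 3. CRTC2 shifted by 0.59, 0.94 and 0.44, and PDE4B by -0.85, -1.03 and -0.33. In these 3 genes and in ATF1 and CRTC1, Sev replicate 3 was the nearest to the control mean. Sev replicate 2 was the farthest, although in CRTC1 it was level with Sev replicate 1 at -0.52. CRTC3 had the opposite order, with 0.67 in Sev replicate 2 and 0.86 in Sev replicate 3, and SIK2 was nearly even at -0.72, -0.64 and -0.65. Over the 11370 of 12014 called features with a count above 0 in every library, Sev replicate 2 was the nearest to control for 38.0%, Sev replicate 3 for 36.8% and Sev replicate 1 for 25.2%.

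Around the circuit, 94 genes in 6 lists, drawn up with earlier results of these data known, were examined, of which 85 were tested. Of these 24 were higher and 15 lower, 45.9% in all, next to 43.7% of all features, and their median log2 fold change was 0.062. In the list for cAMP production (receptors, G proteins and adenylyl cyclases) 3 of 15 tested genes rose and 2 fell, with a median of -0.095. PTGER4, a prostaglandin E2 receptor that raises cAMP, went from 6.07 ± 1.25 to 29.1 ± 12.3 CPM (log2 fold change 2.26, SE 0.34, adjusted p = 0.00159). ADCY6, an adenylyl cyclase, fell from 62.0 ± 8.09 to 28.8 ± 5.35 CPM (-1.11, SE 0.16, adjusted p = 0.00128), and the cyclases ADCY3 (0.32) and ADCY9 (-0.32) moved in opposite directions.

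Of 10 tested PKA subunits and inhibitors, 4 rose and 1 fell, with a median of 0.16. The PKA inhibitors PKIB and PKIG each had a log2 fold change of 0.66 (adjusted p = 0.0234 and 0.00227). The other PKA inhibitor of the list, PKIA, named after its values were seen, did not pass the test (-0.28, adjusted p = 0.109), although its Sev libraries all lay below the control libraries. The regulatory subunit PRKAR2B had a log2 fold change of 0.39 and the PKA-like kinase PRKX one of -0.41. Among 12 other cAMP phosphodiesterases, 2 rose and 1 fell, with a median of 0.068. PDE2A, which cGMP activates, had 16, 8 and 23 counts in control cells and 85, 177 and 104 after Sev (3.16, SE 0.40, adjusted p = 0.000815). PDE4A, a sister of PDE4B and PDE4D, had 23 to 30 counts and 33 to 68 counts (1.04, adjusted p = 0.0343), and it remained the smaller part of the family beside PDE4B and PDE4D. PDE10A, a phosphodiesterase best known from striatal neurons, went from 31.2 to 15.7 CPM (-0.99, SE 0.16, adjusted p = 0.0022).

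The CREB family and its co-activators outside the circuit had 4 of 8 genes higher and 3 lower, with a median of -0.043. CREB5, a relative that binds the CRE, rose from 49.3 to 115 CPM (1.22, SE 0.10, adjusted p = 0.000166). The histone acetyltransferases EP300 (0.61) and CREBBP (0.58), which CREB1 recruits, were higher, whereas ATF2 (-0.42) and CREBZF (-0.65) were lower along with CREB1. Of 19 genes that act on the SIKs and CRTCs or are regulated with them, 4 rose and 4 fell, with a median of 0.091. PPP3CC and PPP3R1, subunits of calcineurin, the phosphatase that dephosphorylates CRTCs, rose by 0.92 and 0.61 (adjusted p = 0.00088 and 0.00157). The more abundant catalytic subunits PPP3CA and PPP3CB, named after their values were seen, did not pass the test (-0.23 and -0.20, adjusted p = 0.105 and 0.144), although the Sev libraries of PPP3CB all lay below its control libraries. Among class IIa histone deacetylases, which are SIK substrates, HDAC4 (-0.75) and HDAC5 (-0.32) were lower and HDAC9 (0.35) was higher. HDAC7, the other such gene of the list, named after its values were seen, did not pass the test (0.091, adjusted p = 0.526). STRADB, a partner of the upstream kinase LKB1, was lower (-0.44). Named after their values were seen, STK11, which encodes LKB1, was also lower (-0.31, adjusted p = 0.0436), and STRADA did not pass the test (0.12, adjusted p = 0.433).

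Among 21 tested genes with CRE-driven promoters, 7 rose and 4 fell, with a median of 0.0093. IRS2, an insulin signaling adaptor, went from 103 to 233 CPM (1.18, SE 0.18, adjusted p = 0.00155), and the clock gene PER1 went from 81.6 to 157 CPM (0.94, SE 0.12, adjusted p = 0.000846). VGF, a secreted neuropeptide precursor, had a log2 fold change of 1.19 at a low level of 1.35 and 3.09 CPM. BTG2, an antiproliferative gene, fell from 30.9 to 7.97 CPM (-1.96, SE 0.32, adjusted p = 0.00228). PCK1, a gluconeogenic enzyme, had 56, 25 and 52 counts in control cells and 9, 0 and 5 after Sev (-3.02, adjusted p = 0.01), a fold that rests on few counts and was -3.91 on the log2 scale without Sev replicate 1 and -2.45 without Sev replicate 2. FOSB, an immediate early transcription factor, fell by 0.82 on the log2 scale (adjusted p = 0.0392), although its groups overlapped. The other genes of the list that were called, named here after their values were seen, were RGS2 (0.83), ATF3 (0.71), NFIL3 (0.62), EGR1 (0.46) and FOS (-0.50). Another 10 did not pass the test, with log2 fold changes from -0.35 for JUNB to 0.52 for GEM. Of the list genes named by rule above, ADCY3, ADCY9, PKIB, PRKAR2B, PRKX, PDE4A, HDAC9, HDAC5, STRADB and FOSB each lost the call when some single library was left out, Sev replicate 1 for all of them but PDE4A. Their highest adjusted p-values (edgeR) in these fits were between 0.0592 for STRADB and 0.153 for HDAC9.

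**Figure D4:**
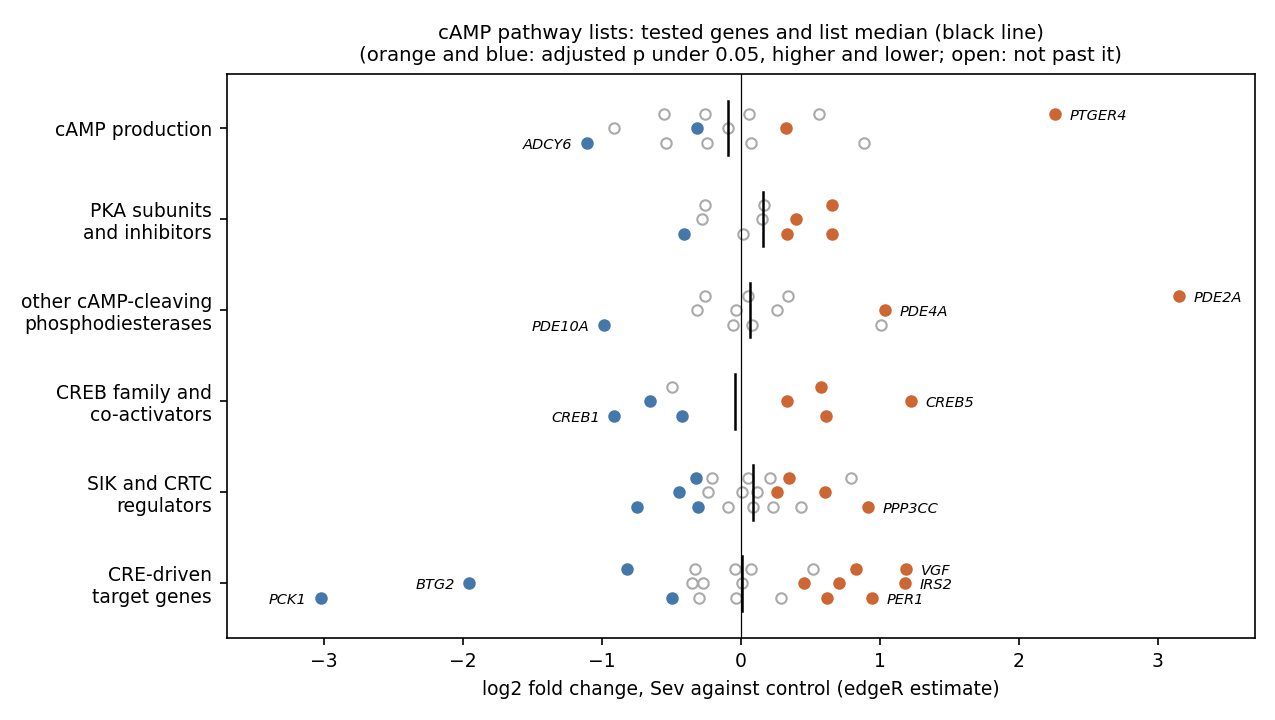
Log2 fold change of Sev against control (horizontal axis, edgeR estimate) of the tested genes in the 6 cAMP pathway lists, leaving out 1 that is not reported here, with orange and blue points for genes higher and lower at an adjusted p-value under 0.05, open points for the others and a black line at each list's median. The list medians lie between -0.095 and 0.16, and the widest single differences are those of PDE2A (3.16) and PCK1 (-3.02).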

How the data were processed

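Labels assigned 3 libraries to control and 3 to Sev. For 61496 features the authors deposited raw read counts, and for each of them an FPKM value as well. The submitters' processing notes name bcl2fastq 2.19, featureCounts and hg18. The aligner, the annotation and the strand setting are not given in the sources used here. Symbols were joined by Ensembl ID, positions came from GENCODE 29 (GRCh38) and promoter windows from RefSeq. The deposited tables hold no coordinates, so no build was converted.

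The count test was edgeR 4.0.16 under R 4.3.3, with filterByExpr, TMM scaling, glmQLFit and glmQLFTest, with group as the only term, and Benjamini-Hochberg adjustment over 27514 features. SE was derived from the log2 fold change and the root of its F statistic. CPM values are TMM-normalized with no prior count. FPKM served for levels between genes. Libraries held 38624292 to 46318311 counts, and how much precision depth or the 3 replicates per group gave was not compared. The edgeR step was tested on simulated data.

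The members and lists were chosen with earlier results of these data known. Named were all members, SIK1B, and from each list up to 3 genes in each direction with the widest log2 fold change among those called. The result for 1 gene so named is not reported here. The 15 alternatives were DESeq2 1.42.0 size factors and Wald test, library totals alone, a fit blocked by replicate number, no filter, a minimum of 10 counts throughout, omission of each library, and limma 3.58.1 on log2(FPKM + 1), with and without a filter of 0.5 FPKM in 3 libraries, and on log2(FPKM + 0.1).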

Additional observations from a re-analysis of the deposited data

How the results depend on the processing

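SIK1, SIK1B, SIK2, CRTC2 and CRTC3 kept their direction and their call in all 15 alternatives, SIK1 with log2 fold changes of 1.14 to 1.87 and SIK2 with -0.81 to -0.64. With each library left out in turn, the number of circuit genes higher after Sev was 3 to 4, the number lower was 1 to 3, and SIK1 alone stayed past the study's threshold. The number lower was 1 without Sev replicate 1, where CRTC1 and PDE4B lost their calls. Calls over all features also fell in that fit, to 4780 higher and 4522 lower of 28663 tested, against 6094 and 5920 of 27514 in the main fit. With each library left out in turn, 4780 to 5709 features were higher and 4438 to 5521 lower. CRTC1 lost its call in 6 alternatives and PDE4B in 1. The uncalled genes changed sign: CREM was -0.018 with library totals alone, -0.012 with limma on log2(FPKM + 1), with or without the filter, and -0.034 with log2(FPKM + 0.1). SIK3 was -0.13, -0.099 (with or without the filter) and -0.12 in the same settings, -0.027 without control replicate 2 and -0.0073 without Sev replicate 2, and it ranged from -0.027 to 0.068 with a library left out. PDE4D was -0.0015 without Sev replicate 3 and ranged up to 0.33. Of the list genes named, ADCY3, ADCY9, PRKX and FOSB lost their calls in 6 alternatives each, PKIB and HDAC5 in 7, PRKAR2B and HDAC9 in 11, PDE4A in 8 of 13, and STRADB and VGF in 1. The cause was not tested.

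Same-numbered control and Sev libraries did not deviate together (correlations of -0.0072, 0.0035 and 0.027), and differently numbered ones gave -0.038 to 0.032. Correlations this small over the tested features do not show whether same-numbered libraries shared a culture or batch. With the replicate number as a block, 3 circuit genes were higher, 3 were lower and 1 was past the threshold. ATF1 then had a log2 fold change of 0.36 and an adjusted p of 0.092 (edgeR), and ADCY9, PRKAR2B, PRKX, PDE4A, HDAC9 and HDAC5 also lost their calls. Over all features, 5228 were higher and 5021 lower with the block, against 6094 and 5920 without it. Not every library correlated best with its own number.

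Scaling by library totals alone moved the median of all features by -0.14 on the log2 scale, and 4665 were then higher and 7502 lower, so 38.3% of calls were higher against 50.7% with TMM. With limma on FPKM this share was 35.4% to 40.0%. Features past the threshold numbered 6462 with TMM, 1269 and 1270 with log2(FPKM + 1), with and without the filter, and 3839 with at least 10 counts in every library. PCK1, PDE2A and PDE4A had few counts in at least 1 group, which limits their precision.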
